A study of Homo sapiens with 15 samples.

Results

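A set of 10 genes that cells switch on through the transcription factor NF-kB were followed in A2058 cells, a human malignant melanoma line, after 8 h of treatment. They were the chemokines CXCL8, CXCL1, CXCL2, CXCL3 and CCL2, the interleukins IL6, IL1A and IL1B, and the feedback inhibitors NFKBIA and TNFAIP3. The genes were chosen by name, and their probes were found through the RefSeq accession given for each probe, which gave 13 of 58201 probes for these 10 of 22439 named genes. All 10 genes passed the filter on dim probes, and 9 of them were well above background on all 15 arrays. IL1A was well above background on 14 arrays, all except DMSO replicate 3. The cells received NP at 3 µM in DMSO, metformin (MET) at 5 mM in water or phenformin (PHEN) at 50 µM in water, and the controls received DMSO alone or water alone (W). Each of the 5 groups held 3 arrays, numbered 1 to 3, which the study describes as biological replicates. Nothing in the labels says that a number marks the same experiment in all groups. The series title names NP as neopetasin, the study writes of petasin, and the arrays do not show which was used. A2058 is 1 established line, so the values describe these cells only.

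NF-kB is held in the cytoplasm by inhibitor proteins of the IkB family. Cytokine receptors and danger signals activate the IkB kinase complex, the inhibitor is degraded, and NF-kB enters the nucleus and binds kB sites in the promoters of inflammatory genes. Among these targets are genes that end the signal, such as NFKBIA, which encodes the main inhibitor IkBα, and TNFAIP3, which encodes the ubiquitin-editing enzyme A20. Many melanomas secrete CXCL8 and the CXCL1 to CXCL3 chemokines, which attract neutrophils through the receptor CXCR2. NP, metformin and phenformin are described as inhibitors of respiratory complex I.

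Levels are given on a log2 scale that was set to 0 at the intensity of the 75th percentile of each array, so that 1 unit is a 2-fold step. They compare arrays for 1 probe and not probes with each other. The arrays lay on 4 slides. Slide 1 held replicates 1 and 2 of DMSO and NP, slide 2 held replicate 3 of DMSO and NP, slide 3 held replicates 1 and 2 of W, MET and PHEN, and slide 4 held replicate 3 of W, MET and PHEN. The slides, the replicate numbers and the vehicles therefore overlap: slide 2 cannot be told apart from replicate 3 of DMSO and NP, and DMSO against water cannot be told apart from one pair of slides against the other. On slide 2 the log2 75th percentile was 7.17 and 7.18, against 7.79 to 8.10 on the other arrays. Between 25799 and 31925 probes per array were well above background with DMSO or NP and between 31407 and 45007 with W, MET or PHEN, the highest being W replicate 1 (45007) and MET replicate 1 (44369). No spot was saturated.

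Most markers of the melanocytic lineage were well above background, at levels that varied. All 10 melanocytic markers were measured and 9 of them, among them the transcription factors MITF and SOX10 and the pigment protein gene PMEL, were well above background on all 15 arrays. TYR was well above background on 13 arrays. The mean levels of TYR (-2.94), TYRP1 (-1.60), GPR143 (-1.11) and MLANA (-0.99) lay below the 75th percentile. Of 10 leukocyte markers 6 passed the filter, and 4 of them, PTPRC, CD14, CSF1R and TYROBP, were well above background on all 15 arrays. The summed linear level of these 6 was 1.56 to 1.94 with DMSO, 1.52 to 1.81 with NP and 1.68 to 3.41 with W. It was 1.62 to 4.73 with MET and 1.66 to 2.05 with PHEN, in units of the 75th percentile. Markers of other cell types were mixed. Of 9 fibroblast markers 5, among them THY1 and LUM, were well above background on all 15 arrays, as were 4 of 6 endothelial markers and 3 of 7 keratinocyte markers, KRT10, KRT14 and KRT15. The fibroblast marker COL3A1, the endothelial marker CLDN5 and the keratinocyte and epithelial markers KRT5, KRT1 and EPCAM were well above background on no array. The RNA came from whole cultures, in which fewer cells expressing a gene and less RNA per expressing cell cannot be told apart.

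The promoters are shown because they hold the DNA letters that NF-kB reads and because the CXCL1, CXCL2 and CXCL3 genes have the same match. Windows from 250 bases before to 50 bases after the transcription start were taken from RefSeq (GRCh38.p14), in which 9 of the 10 genes, all but CCL2, had an entry. For TNFAIP3 the transcription start of the window lies inside the RefSeq gene span, 137866349 to 137883312, and not at its first base. The stretch from base -110 to base -41 is printed for 7 genes, 5′ to 3′ in the direction of the gene, with matches to a kB motif in capitals.
CXCL8 (chr4:73740459-73740528, plus strand): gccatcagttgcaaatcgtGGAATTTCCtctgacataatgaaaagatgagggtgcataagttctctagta
CXCL1 (chr4:73869283-73869352, plus strand): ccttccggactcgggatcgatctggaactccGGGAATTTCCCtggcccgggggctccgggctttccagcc
CXCL2 (chr4:74099236-74099305, minus strand): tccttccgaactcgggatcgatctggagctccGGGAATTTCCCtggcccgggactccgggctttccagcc
CXCL3 (chr4:74038730-74038799, minus strand): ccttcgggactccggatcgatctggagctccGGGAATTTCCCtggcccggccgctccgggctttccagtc
IL6 (chr7:22727090-22727159, plus strand): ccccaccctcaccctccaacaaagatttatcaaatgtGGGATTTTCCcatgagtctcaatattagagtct
NFKBIA (chr14:35404790-35404859, minus strand): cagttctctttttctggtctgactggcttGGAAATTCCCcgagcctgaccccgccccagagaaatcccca
TNFAIP3 (chr6:137867149-137867218, plus strand): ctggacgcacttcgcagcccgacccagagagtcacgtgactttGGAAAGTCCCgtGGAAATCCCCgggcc
The kB consensus was found on either strand in the windows of 6 genes, CXCL1, CXCL2, CXCL3, IL6, NFKBIA and TNFAIP3, and in 11.3% of all 35116 promoter windows. A shorter kB form, GGANTTTCC, was found in the same 6 genes and in CXCL8, against 1.64% of all windows, and most of its matches lie inside a consensus match. CXCL1 and CXCL3 had the consensus at base -79 and CXCL2 had it at base -78, with the same 10 letters in each and a further match on the other strand that overlaps it. IL6 had its match at base -73. NFKBIA had a match at base -81 and TNFAIP3 had matches at bases -67 and -55, all read on the opposite strand. The AP-1 motif TGANTCA was found in the windows of CXCL8 and IL1A (7.71% of all windows), and the C/EBP motif TTGCNNAA in those of CXCL2, IL6 and IL1B (10.5%). Over the 250 bases before the start, CXCL1 and CXCL3 were 81.4% identical in a global alignment, CXCL2 and CXCL3 73.4%, and CXCL1 and CXCL2 70.1%, whereas CXCL8 was 44.3% to 48.1% identical to the 3 others. These matches describe the sequence, and binding was not measured.

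CXCL8 (chromosome 4, 73740569 to 73743716 in GRCh38.p14), a chemokine that attracts neutrophils, was low on both arrays of slide 2 and varied little elsewhere. Its level in replicates 1 to 3 was 3.72, 3.71 and 0.39 with DMSO and 3.58, 3.87 and 0.85 with NP. It was 3.34, 3.72 and 3.90 with W, 3.07, 3.24 and 3.26 with MET, and 3.20, 3.24 and 3.28 with PHEN. The 13 arrays of the other slides lay between 3.07 and 3.90, and the 2 arrays of slide 2 lay below all of them. On slide 2 CXCL8 was 8.59-fold lower than on slide 1, a log2 difference of -3.10. Of all 26824 features 53 (0.198%) were at least 8-fold lower on slide 2, and CXCL8 ranked 39 from the lowest. These features include some that were not above background on slide 2, whose differences are not measured in full. Among the 20389 features above background on both arrays of slide 2, 28 (0.137%) were at least 8-fold lower and CXCL8 ranked 20.

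**Figure D1:**
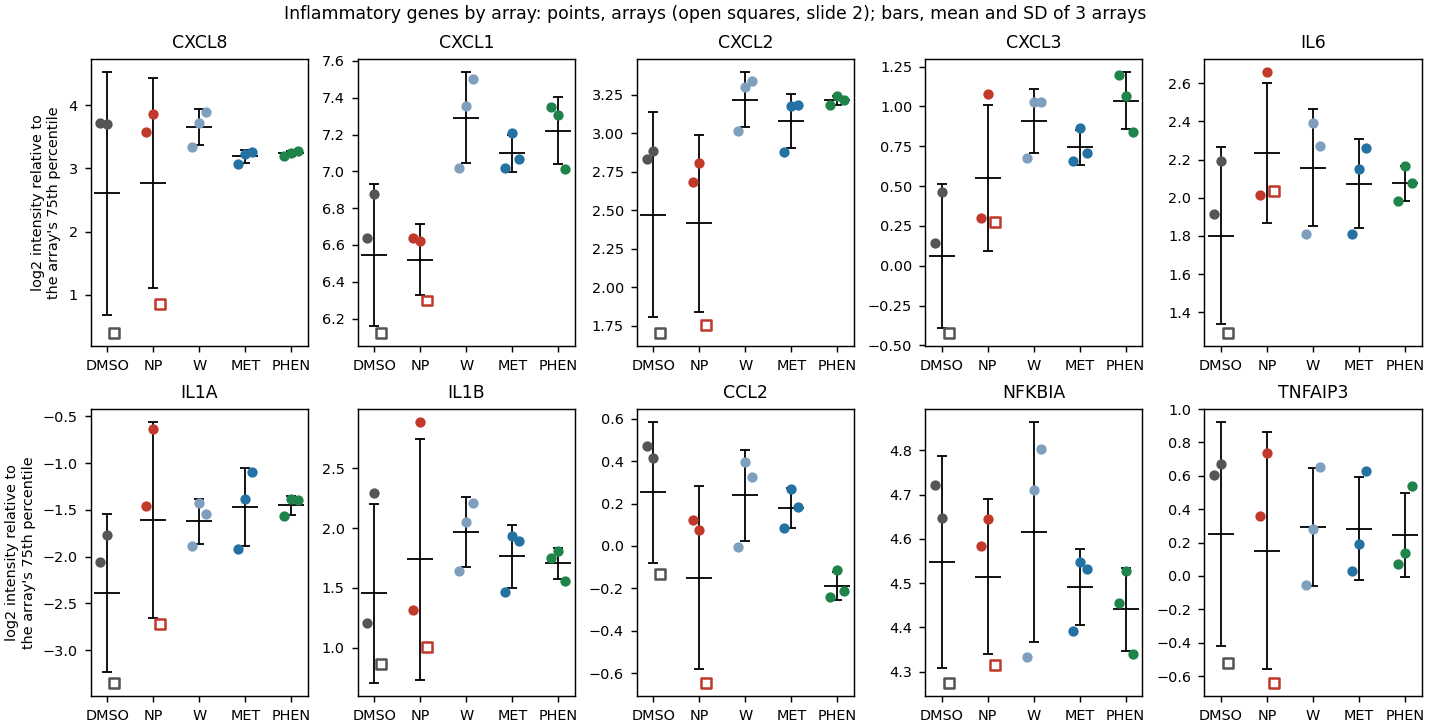
Log2 level (vertical axes, a separate scale for each gene, with 0 at the array's 75th percentile) for the 10 genes in the 5 groups; each point is 1 array, open squares are the 2 arrays of slide 2, and bars are the mean and SD of 3 arrays. In CXCL8 the open squares lie at 0.39 and 0.85 and all other arrays at 3.07 or above.

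The other 9 genes were also lower on slide 2, by less. The log2 difference from slide 1 was -1.56 for IL1A, -1.18 for TNFAIP3, -1.07 for CXCL2, -0.99 for IL1B, -0.66 for CCL2, -0.57 for CXCL3, -0.53 for IL6, -0.48 for CXCL1 and -0.35 for NFKBIA. The median over the 10 genes was -0.83, against 0.00 over all features, and all 10 were lower on slide 2 also after quantile normalization (median -0.84), after normexp background correction (-0.72) and in the authors' normalized table (-0.80). Among the 10 genes 4, CXCL8, CXCL2, IL1A and TNFAIP3, were at least 2-fold lower, against 7.53% of all features. The share was 3.33% of the features above background on both arrays of slide 2, a set without IL1A, which was above background on 1 of them. Both treatments showed the difference: CXCL8 in replicate 3 stood 3.33 below the mean of replicates 1 and 2 with DMSO and 2.88 below it with NP, and IL1A stood 1.44 and 1.67 below, with DMSO replicate 3 not well above background. The corresponding difference between slides 4 and 3, which split the arrays of W, MET and PHEN by the same numbers, had a median of 0.11 over the 10 genes, and none of them was 2-fold lower (5.08% of all features) or 2-fold higher (0.0112%) there. With 2 arrays on slide 2 these differences are given without a test.

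**Figure D2:**
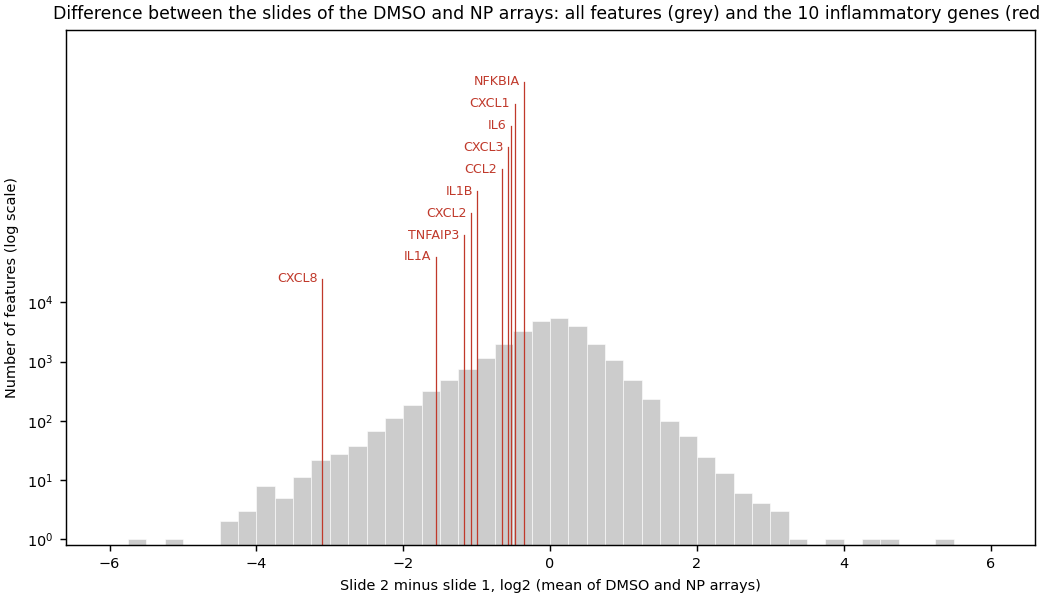
Histogram of the log2 difference between slide 2 and slide 1 for all features (grey, counts on a log scale) with red lines at the 10 inflammatory genes; the heights of the red lines only separate their labels. All 10 lines lie below 0, from -3.10 for CXCL8 to -0.35 for NFKBIA.

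The values on slide 2 also varied between gene lists of the same pathway, which were not tested against each other. Of 14 other secreted factors induced through NF-kB 12 were lower on slide 2, against 13297 of all 26824 features. The median of the 14, -0.83, includes 5 genes above background on neither array of slide 2. By measured value or bound, 3 of the 14 were at least 2-fold lower, and no share by that rule is given for all features. The interleukin IL11 (-2.14) and the chemokine CCL20 (-1.59) were well above background on slide 2. CSF2, a myeloid growth factor, was well above background on all 4 arrays of slide 1 and on neither array of slide 2, which makes it at least 2.72-fold lower, counted against the dimmest level called above background on each array. CXCL10 and CXCL11 were above background on neither array of slide 2, and no fold is given for them. Over the 8 secreted factors above background on all 15 arrays the median was -0.66. The median was -0.06 over 18 NF-kB subunits, IkB proteins and kinases, -0.05 over 21 adaptors and ubiquitin editors, -0.18 over 19 cell-bound or intracellular targets (13 of them lower), and -0.11 over 20 AP-1, C/EBP and mRNA decay factors. Within those lists the NF-kB targets BIRC3 (-1.98) and NFKB2 (-1.19) and the AP-1 subunits FOSL1 (-1.14) and FOSL2 (-1.08) were at least 2-fold lower. The genes in this paragraph were picked out after their values were seen. Markers also differed on slide 2, in both directions. Of the 10 melanocytic markers 5 were lower and 5 higher, with a median of 0.03. The pigment genes MLANA (-2.20) and TYRP1 (-0.82) were lower. TYR was at least 2.22-fold lower, being above background on neither array of slide 2. The pigment genes PMEL (-0.09) and GPR143 (-0.0004) were close to 0, and DCT (0.32), MITF (0.43) and S100A1 (0.65) were higher. The leukocyte markers ranged from -0.94 for PTPRC to 0.74 for CD14. The part of the slide, of the replicate and of these markers in the result was not tested.

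**Figure D3:**
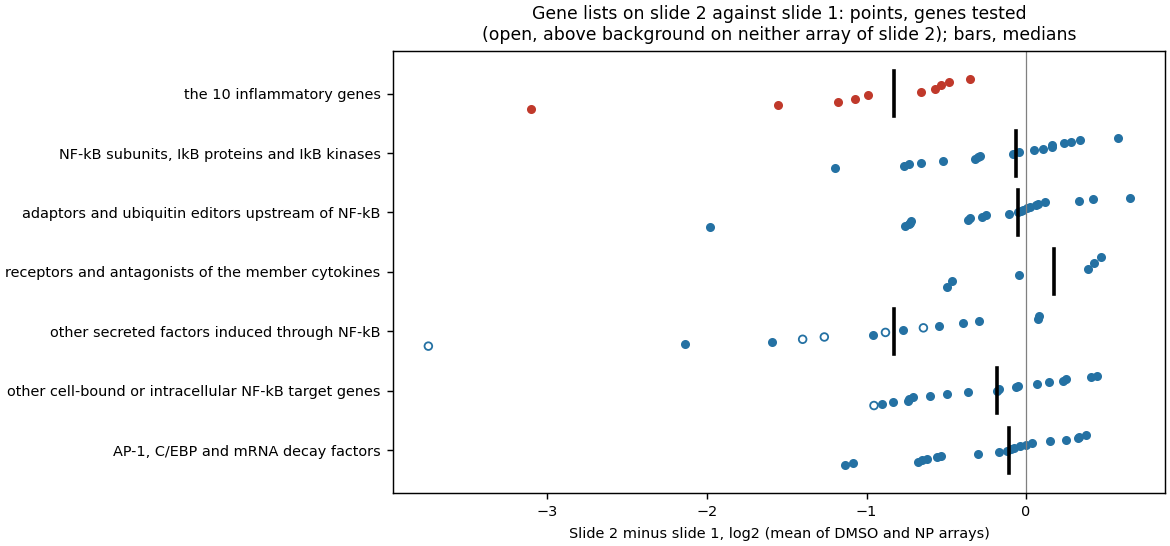
Log2 difference between slide 2 and slide 1 (horizontal axis) for each gene tested in 7 lists; points are genes, open points are genes above background on neither array of slide 2, and black bars are medians. The medians of the 10 inflammatory genes and of the other secreted factors both lie at -0.83, and those of the other lists between -0.18 and 0.17.

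NP was compared with DMSO to ask what the compound did to these genes within 8 h. None of the 10 genes passed limma's moderated test with Benjamini-Hochberg adjustment over 26824 features and a 1.5-fold limit, and 10 features in all (0.0373%) passed it. Of the 10 genes 1, CXCL3, had an unadjusted p of at most 0.05, a limit that 4.69% of features met. The median log2 fold change was 0.07 over the 10 genes and -0.01 over all features. Among the 10, 4 genes, CXCL3, IL6, IL1A and IL1B, were higher in all 3 pairs (14.3% of all features) and 1 gene, CCL2, was lower in all 3 pairs (18.9%). The NP and DMSO arrays overlapped for all 10, whereas they lay apart with NP higher for 3.02% of all features and with NP lower for 3.42%.

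CXCL3 (chromosome 4, 74036589 to 74038689) had levels of 0.14, 0.47 and -0.42 with DMSO and of 0.30, 1.08 and 0.27 with NP. The arrays overlapped because NP replicates 1 and 3 lay between DMSO replicates 1 and 2. The log2 fold change was 0.49 (SE 0.20, 95% interval 0.04 to 0.94; limma adjusted p = 1). Without the slide 2 arrays it was 0.39 (SE 0.20). The estimates for its neighbours were -0.02 (SE 0.18) for CXCL1 and -0.06 (SE 0.29) for CXCL2, and whether the 3 responses differ from each other was not tested.

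CXCL1 (chromosome 4, 73869393 to 73871308) had levels of 6.64, 6.88 and 6.12 with DMSO and of 6.64, 6.62 and 6.30 with NP. CXCL2 (chromosome 4, 74097040 to 74099195) had levels of 2.83, 2.88 and 1.70 with DMSO and of 2.68, 2.81 and 1.76 with NP. For both genes replicate 3 was the lowest array of each group, and the groups overlapped. The dimmer probe of CXCL2 gave another picture, with levels of 1.01, 1.49 and 0.78 with DMSO and of 1.38, 1.81 and 1.5 with NP, a log2 fold change of 0.47 (SE 0.15; limma adjusted p = 0.834 over 32912 probes). The same probe was only 0.28 lower on slide 2, against 1.07 for the brighter probe, and the probes of CXCL2 disagreed on both contrasts. The dimmer probe of CXCL1 gave -0.02 (SE 0.27) for NP and 0.98 lower on slide 2.

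Among the interleukins, IL1A (chromosome 2, 112773925 to 112784493), an alarm cytokine stored in the cell, had the largest estimate. Its levels were -2.06, -1.76 and -3.35 with DMSO and -1.46, -0.64 and -2.72 with NP, which were 0.60, 1.13 and 0.63 higher pair by pair. The groups overlapped because of slide 2, where both arrays were low. The log2 fold change was 0.79 (SE 0.44; limma adjusted p = 1). With slide as a further term in the limma fit the SE was 0.14 (adjusted p = 0.0935), and without the slide 2 arrays the fold change was 0.86 (adjusted p = 0.236). IL6 (chromosome 7, 22727200 to 22731998), the cytokine that activates STAT3, had levels of 1.92, 2.19 and 1.29 with DMSO and of 2.01, 2.66 and 2.04 with NP. Its log2 fold change was 0.43 (SE 0.20, 95% interval -0.02 to 0.89; limma adjusted p = 1), with pair differences of 0.09, 0.46 and 0.75. IL1B (chromosome 2, 112829751 to 112836779), which inflammasomes activate, had levels of 1.2, 2.29 and 0.86 with DMSO and of 1.32, 2.89 and 1.00 with NP. Replicate 2 was the highest for IL1B in both groups, and the log2 fold change was 0.28 (SE 0.36). The 3 interleukins were thus higher with NP in each pair, by amounts that did not pass the test. A further probe of IL6 was well above background on no DMSO or NP array, so no fold is given for it.

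CCL2 (chromosome 17, 34255285 to 34257203), the chemokine that attracts monocytes, had the lowest estimate of the 10. Its levels were 0.47, 0.41 and -0.13 with DMSO and 0.12, 0.08 and -0.65 with NP. Each NP array was lower than its DMSO partner, by 0.35, 0.34 and 0.52, and the groups overlapped through DMSO replicate 3. The log2 fold change was -0.40 (SE 0.19, 95% interval -0.83 to 0.03; limma adjusted p = 1), and the SE was 0.10 with slide as a further term (limma adjusted p = 0.252). CXCL8 differed by 0.16 (SE 0.77), with a 95% interval from -1.55 to 1.87. Without the slide 2 arrays the difference was 0.01 (SE 0.13).

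The feedback inhibitors had estimates near 0. NFKBIA (chromosome 14, 35401513 to 35404749) had levels of 4.72, 4.65 and 4.27 with DMSO and of 4.58, 4.65 and 4.32 with NP, a log2 fold change of -0.03 (SE 0.15, 95% interval -0.37 to 0.30). TNFAIP3 (chromosome 6, 137866349 to 137883312) had levels of 0.61, 0.67 and -0.52 with DMSO and of 0.36, 0.74 and -0.64 with NP, a log2 fold change of -0.10 (SE 0.40, 95% interval -0.98 to 0.78). A change of 1.5-fold lay outside the interval for NFKBIA but inside that for TNFAIP3.

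**Figure D4:**
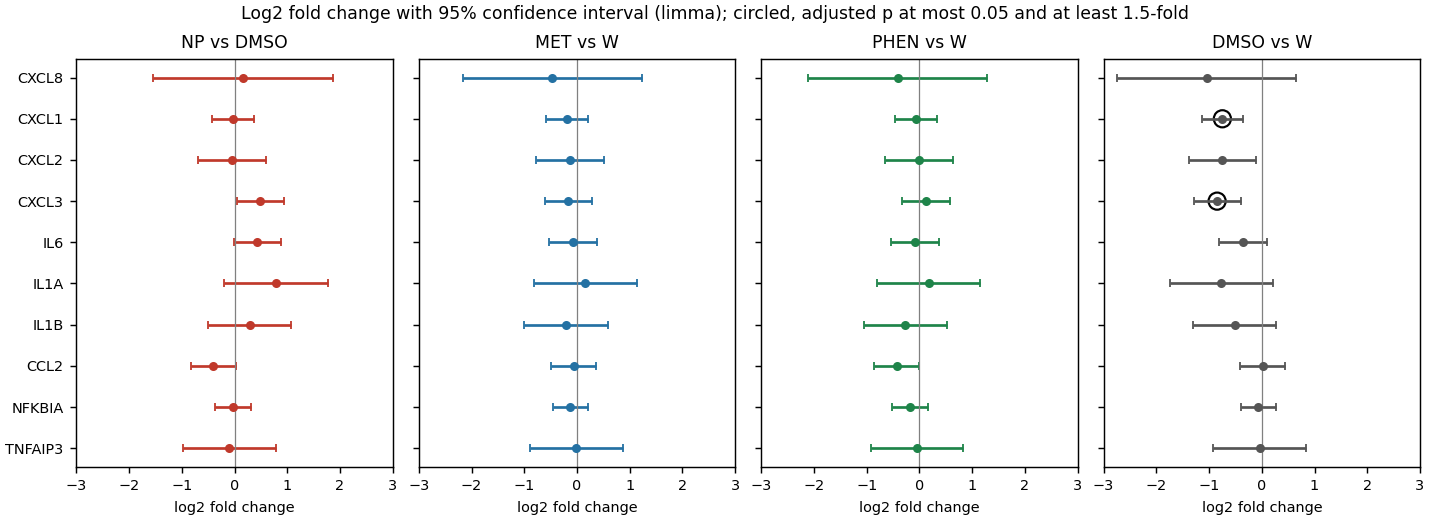
Log2 fold change (horizontal axes) of the 10 genes in 4 comparisons; points are limma estimates from 15 arrays, lines are 95% confidence intervals, and black circles mark genes with adjusted p at most 0.05 and at least a 1.5-fold change. Only CXCL1 and CXCL3 in DMSO against W are circled, and the intervals of CXCL8 are the widest in all 4 comparisons.

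Metformin and phenformin are biguanides, of which phenformin carries a phenethyl group where metformin has methyl groups, and each was compared with water. With metformin none of the 10 genes passed limma's test, and no feature did (0.0%). An unadjusted p of at most 0.05 was met by 0 of the 10 genes and by 659 features (2.46%). With phenformin none of the 10 passed either, against 7 features in all (0.0261%), and 0 of the 10 and 631 features (2.35%) had an unadjusted p of at most 0.05. The median log2 fold change over the 10 genes was -0.13 with metformin and -0.08 with phenformin, against 0.00 and -0.03 over all features. Among the 10, 6 genes, the 4 CXC chemokines, IL6 and IL1B, were lower with metformin in all 3 pairs, against 20.3% of all features. Some of the pair differences counted were close to 0. They were -0.0009 and -0.0103 for IL6 in pairs 1 and 3, and -0.002 for CXCL1 and -0.0213 for CXCL3 in pair 1.

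CXCL8 lay lower on the arrays of both biguanides than on those of water. All 3 MET arrays, at 3.07, 3.24 and 3.26, and all 3 PHEN arrays, at 3.20, 3.24 and 3.28, lay below the lowest W array at 3.34. The pair differences ranged from -0.27 to -0.64 with metformin. Groups lay apart in this direction for 2.28% of features with metformin and for 4.31% with phenformin. The log2 fold change was -0.46 with metformin and -0.41 with phenformin, both with an SE of 0.77, an error estimated over all 15 arrays. Without the slide 2 arrays the SE was 0.10, and the difference still did not pass (limma adjusted p = 0.611 for metformin and 0.569 for phenformin). Under the 16 alternatives the estimate stayed between -0.56 and -0.38 for metformin and between -0.55 and -0.31 for phenformin.

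CCL2 lay lower on the phenformin arrays than on those of water and metformin. Its levels were -0.01, 0.40 and 0.33 with W, 0.08, 0.27 and 0.18 with MET, and -0.24, -0.11 and -0.21 with PHEN. The 3 PHEN arrays lay below all W and MET arrays, whereas the MET arrays lay among the W arrays. The log2 fold change was -0.43 with phenformin (SE 0.19; limma adjusted p = 1) and -0.06 with metformin (SE 0.19). Phenformin minus metformin was -0.37 (SE 0.19, 95% interval -0.80 to 0.06; limma adjusted p = 1). With slide as a further term the phenformin difference had an SE of 0.10 (limma adjusted p = 0.434). The estimate for NP against DMSO, -0.40, is given beside these, and the doses of the 3 compounds differ.

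The log2 fold changes of the other chemokines and the interleukins lay between -0.27 and 0.17 with either biguanide. CXCL1 was at 7.02, 7.35 and 7.50 with W, at 7.02, 7.21 and 7.06 with MET and at 7.35, 7.30 and 7.01 with PHEN. CXCL2 was at 3.01, 3.30 and 3.34 with W, at 2.88, 3.18 and 3.18 with MET and at 3.18, 3.24 and 3.21 with PHEN. In both genes the 3 groups overlapped, and W replicate 1 was the lowest W array. CXCL3 was at 0.68, 1.03 and 1.03 with W, at 0.66, 0.87 and 0.71 with MET and at 1.2, 1.07 and 0.84 with PHEN, and its log2 fold change was -0.17 with metformin and 0.13 with phenformin (SE 0.20 each). IL6 was at 1.81, 2.39 and 2.27 with W, at 1.81, 2.15 and 2.26 with MET and at 1.98, 2.17 and 2.07 with PHEN, with -0.08 for each biguanide (SE 0.20). These interleukin estimates were well inside their errors. IL1A was at -1.89, -1.43 and -1.55 with W, at -1.92, -1.38 and -1.09 with MET and at -1.56, -1.39 and -1.39 with PHEN. IL1B was at 1.65, 2.06 and 2.21 with W, at 1.46, 1.94 and 1.89 with MET and at 1.75, 1.81 and 1.55 with PHEN. IL1A was higher than its water partner in all 3 pairs with phenformin, the only gene of the 10 that was (12.2% of all features).

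NFKBIA was at 4.33, 4.71 and 4.80 with W, at 4.39, 4.55 and 4.53 with MET and at 4.46, 4.53 and 4.34 with PHEN. Its log2 fold change was -0.13 with metformin and -0.18 with phenformin (SE 0.15 each). TNFAIP3 was at -0.05, 0.28 and 0.65 with W, at 0.03, 0.19 and 0.63 with MET and at 0.07, 0.14 and 0.54 with PHEN, and its estimates were -0.01 and -0.05 (SE 0.40 each). In all 3 groups replicate 3 was the highest for TNFAIP3, which was 0.50 higher on slide 4 than on slide 3. On the slides of DMSO and NP this gene was lower, not higher, in replicate 3.

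The effects of the compounds were also compared with each other, at doses that differ. Over 10 genes and 3 contrasts, NP effect minus metformin effect, NP effect minus phenformin effect, and phenformin against metformin, no gene passed the adjusted limit. By the brightest probe of each gene, the largest difference relative to its error was in CXCL3, whose NP effect exceeded its metformin effect by 0.66 (SE 0.28, 95% interval 0.02 to 1.29; limma adjusted p = 1). The dimmer CXCL2 probe gave 0.67 for the same contrast (SE 0.21; limma adjusted p = 1 over 32912 probes), and the larger ratio to its error. For IL6 the NP effect exceeded the metformin effect by 0.52 and the phenformin effect by 0.52, each with an SE of 0.29. Phenformin and metformin differed by 0.12 for CXCL1 (95% interval -0.27 to 0.52) and by 0.00 for IL6 (-0.45 to 0.46), intervals that reach a 1.43-fold and a 1.37-fold difference. Other intervals were wider, at -1.66 to 1.76 for CXCL8 and -0.96 to 1.00 for IL1A.

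The vehicles were compared because NP was dissolved in DMSO and the biguanides in water. By the brightest probe of each gene, only CXCL1 and CXCL3 of the 10 passed limma's test in these 4 comparisons, and both were lower with DMSO. In DMSO against W 10.6% of all features passed and 7.79% passed with DMSO lower. CXCL1 was at 6.12 to 6.88 with DMSO and at 7.02 to 7.50 with W, a log2 fold change of -0.75 (SE 0.18; limma adjusted p = 0.0210). CXCL3 was at -0.42 to 0.47 with DMSO and at 0.68 to 1.03 with W, a log2 fold change of -0.85 (SE 0.20; limma adjusted p = 0.0208). The dimmer CXCL1 probe gave -1.09 (SE 0.27; adjusted p = 0.0220 over 32912 probes). CXCL2 had the same size of difference, -0.75, with a larger error (SE 0.29; limma adjusted p = 0.1). The dimmer CXCL2 probe gave -0.43 (SE 0.15; limma adjusted p = 0.0680 over 32912 probes), and its DMSO and water arrays overlapped. The further IL6 probe also passed with DMSO lower (limma adjusted p = 0.0102 over 32912 probes). It was above background on all 3 W arrays and on no DMSO array, so no fold is given for it. By the brightest probes the arrays lay apart with DMSO lower for 3 of the 10 genes, CXCL1, CXCL2 and CXCL3, against 20.4% of all features.

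This vehicle difference depended on the arrays included. Leaving out replicate 1, 2 or 3 ended both calls, with log2 fold changes of -0.93, -0.88 and -0.43 for CXCL1 and of -1.0, -0.99 and -0.55 for CXCL3. Without the 2 arrays of slide 2 the values were -0.54 for CXCL1 (adjusted p = 0.0323, under the 1.5-fold limit), -0.32 for CXCL2 (adjusted p = 0.0331) and -0.62 for CXCL3 (adjusted p = 0.0358). CXCL8 turned from -1.05 (SE 0.77) to 0.12 (SE 0.12) and TNFAIP3 from -0.04 (SE 0.40) to 0.51 (SE 0.10; adjusted p = 0.00719). With slide as a random block neither chemokine passed (adjusted p = 0.129 for CXCL1 and 0.179 for CXCL3). The median over all features was itself -0.12 in this comparison, and -0.01 after quantile normalization.

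The genes that act with these 10 gave few calls. In NP against DMSO, MET against W and PHEN against W no member of the 6 pathway lists passed the adjusted limit, out of 18 subunits, IkB proteins and kinases, 21 adaptors and ubiquitin editors, 6 receptors and antagonists, 14 other secreted factors, 19 other targets, and 20 AP-1, C/EBP and mRNA decay factors. The receptors CXCR1 and CXCR2 were not among the 6 receptor genes that passed the filter on dim probes. In DMSO against W 2 members were higher and 4 lower, 6 of 98 (6.12%) against 10.6% of all features. REL, an NF-kB subunit, was higher by 0.62 (SE 0.12; limma adjusted p = 0.0118) and the chemokine CXCL5 by 0.87 (SE 0.25; adjusted p = 0.0388). IRAK1, a kinase below interleukin receptors, was lower (-0.79, SE 0.12), as were IL23A (-0.84, SE 0.21) and FOSL2 (-1.12, SE 0.34). CSF3 was called lower too, but it was above background on all W arrays and on no DMSO array, at a level too near the background for a fold. CXCL5 thus differed in the opposite direction to CXCL1 and CXCL3, which signal through the same receptor. No receptor or other target passed both limits. The arrays lay apart with DMSO lower for 2 of 6 receptors, SIGIRR (-0.42) and IL1R1 (-0.39), and for 6 of 19 other targets, against 20.4% of all features. Among these targets were ICAM1 (-0.64), IRF1 (-0.49) and IER3 (-0.42). They lay apart with DMSO higher for 1 other target, TNFAIP2 (0.39), against 9.19% of all features.

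The AP-1 and C/EBP list held the largest unadjusted differences with the compounds, picked out here after their values were seen. ATF3, a stress-induced repressor of inflammatory genes, was higher by 1.17 with NP (SE 0.22; limma adjusted p = 0.164), by 0.84 with metformin and by 0.99 with phenformin. The ATF3 arrays lay apart from their controls with each compound. Over the pathway lists together, arrays lay apart with the compound higher for 3 of 98 genes with NP, 8 with metformin and 11 with phenformin. The share over all features was 3.02% with NP and is not given for the biguanides. CEBPG was higher by 0.72 with NP, by 0.34 with metformin and by 0.53 with phenformin (SE 0.13 each). Its metformin and water arrays overlapped. CEBPB, which binds the IL6 and CXCL8 promoters, was higher by 0.39 with NP, 0.20 with metformin and 0.23 with phenformin (SE 0.09 each). JUN, a core AP-1 subunit, had log2 fold changes of -0.43 with NP, -0.46 with metformin and -0.56 with phenformin (SE 0.23 each). None of these passed the adjusted limit. The 2 biguanide comparisons share the water arrays.

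Across the 15 arrays the levels of the 10 genes followed each other to different degrees, which is a description of arrays that share slides and vehicles. CXCL1 and CXCL2 had a Pearson r of 0.92 (Spearman rho 0.91), CXCL8 and CXCL2 had 0.87 (rho 0.36), and CXCL8 and TNFAIP3 had 0.87 (rho 0.80). Among 16489 genes the 5 with levels most like those of CXCL1 were ZRSR2 (r = 0.98), INSL4 (0.97), MRPS17 (0.96), SPA17 (0.96) and TGFBI (0.96), none of which is in the pathway lists. The 5 most like CXCL8, which was added after its values were seen, were C6orf58 (0.97), NME5 (0.97), FOXD1 (0.97), TPM4 (0.96) and SNORD56B (0.96). Their Spearman rho with CXCL8 was lower, at 0.57 to 0.86. All 5 had lower levels on slide 2, with log2 differences of -0.85 to -1.80. That follows from how they were picked, since CXCL8 varied mainly between slide 2 and the other arrays.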

How the data were processed

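Total RNA of A2058 cells was labelled with Cy3 and hybridized to Agilent human expression arrays by the authors, and the deposited scanner files hold background-subtracted intensity values extracted with Agilent Feature Extraction (10.7.3.1 in the file headers, 9.1 in the submitters' processing notes), not normalized between arrays. The authors' deposited table of log2 values, which has a floor of 4 and follows the scanner values scaled by array, was used as an alternative. Control and outlier spots were left out, repeat spots were averaged by probe, and each array was scaled by its 75th percentile before log2 was taken. A probe was kept where the scanner flag called it well above background in every array of some group (32912 probes), each gene was represented by its brightest probe, and features with values on at least 8 arrays were tested (26824). Symbols came from RefSeq (31104 of 33080 RefSeq probes matched). No probe sequence was used.

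A linear model with group and replicate number was fitted to all 15 arrays with limma 3.58.1 in R 4.3.3 (two-sided, Benjamini-Hochberg over all features). The fit was first tried on simulated data with independent noise, which held no slide or replicate effects and so did not test how it handles them. A gene was called changed at an adjusted p of at most 0.05 and at least 1.5-fold. The replicate number was kept as a block because the study's own test was paired. Deviations of same-numbered arrays correlated at 0.31 to 0.65 (NP and DMSO), 0.44 to 0.86 (MET and W) and 0.24 to 0.40 (PHEN and W), but at -0.19 to -0.02 for DMSO and W. An exact permutation test of 3 against 3 arrays cannot go below p = 0.1 and was not used. With 3 arrays per group, their number limits the precision.

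Named were all 10 genes and, from each pathway list, the called genes, or else up to 3 genes with the largest change among those whose groups lay apart; likeness was measured for the gene above background on most arrays with the highest level. Others are named as chosen after their values were seen. The 10 genes and all lists were chosen with earlier results of these data known. Fits with other scalings, filters, slide terms and array sets, and the methods' t-test, were tried as alternatives. Python 3.11.15 with pandas 2.3.3, numpy 2.4.6 and matplotlib 3.10.9 was used for the tables and plots.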

Additional observations from a re-analysis of the deposited data

How the results depend on the processing

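No member of the 10 genes passed in NP against DMSO, MET against W or PHEN against W under any alternative, except 1 (IL1A) by the methods' t-test without adjustment for NP. For DMSO against W the 2 called genes became 0 with slide as a random block, without the filter on dim probes, with only the 2 groups compared, by the methods' t-test with or without adjustment and in each fit without 1 replicate (0 to 0), and 1 (CXCL3) without slide 2, an alternative chosen after seeing the data. Taking the mean of a gene's probes gave 3. The gene gained was IL6, whose mean takes in its further probe, above background on no DMSO array. Of 626 alternative fold changes of the 10 genes 589 kept their direction and side of the limit, 18 changed sign, 17 lost a call and 2 gained one.

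Signs turned as follows. In the fits without 1 replicate, NP gave -0.126 to 0.092 for CXCL1 and -0.070 to 0.020 for NFKBIA, metformin gave -0.056 to 0.028 for TNFAIP3, and phenformin gave -0.27 to 0.14 for CXCL1, -0.093 to 0.056 for CXCL2, -0.071 to 0.28 for CXCL3 and -0.13 to 0.0030 for TNFAIP3. DMSO against W gave -1.76 to 0.18 for CXCL8, -0.22 to 0.25 for CCL2, -0.30 to 0.16 for NFKBIA and -0.39 to 0.52 for TNFAIP3, with the upper values of CXCL8, NFKBIA and TNFAIP3 in the fit that left out replicate 3. Without slide 2 CXCL8 was 0.12, NFKBIA 0.089 and TNFAIP3 0.51. NFKBIA was 0.012 after quantile normalization, CCL2 was -0.074 with slide as a random block, and CXCL2 with NP was 0.21 as the mean of its probes. The cause was not tested.

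The count of all features called moved more. Without the replicate block it was 3 for NP (10 with it), 0 for phenformin (7), 0 for metformin (0) and 1926 for DMSO against W (2843). Members called were 0, 0, 0 and 2 without the block, as with it. With slide as a further term it was 63 for NP, 2 for metformin and 16 for phenformin, and with slide as a random block 70, 3, 14 and, for DMSO against W, 200. Normexp gave 26 for NP, 2 for metformin and 1202 for DMSO against W, and quantile normalization gave 17 for NP. Without the filter on dim probes NP and phenformin had 0, and with probes above background on all 15 arrays NP had 26 and DMSO against W 1633. With only the 2 groups compared, NP, phenformin and DMSO against W had 0. The study's methods describe ratios of each compound to DMSO, whereas the methods' t-test was run here with the biguanides against water. It gave 214, 124, 168 and 1462 without adjustment and, after Benjamini-Hochberg, 0 for NP, 0 for phenformin and 3 for DMSO against W. Without slide 2 the counts were 4, 4, 18 and 5725. Without 1 replicate NP and phenformin had 0 and DMSO against W 0 to 5057. The cause was not tested, and some of the settings also leave fewer arrays or features.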
